A study of Mus musculus with 10 samples.

Results

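Keratin-associated proteins are encoded by the Krtap genes, and all 54 genes of the deposited table whose symbol starts with Krtap were taken, of 18994 genes listed. They fall into 27 subfamilies by the digits before the hyphen, with the symbol Krtap13, which has no hyphen, counted apart from Krtap13-1. RNA came from the shaved cheek of C57BL/6 mice 6 to 8 weeks old, with shaving 3 days before the experiment. In 5 mice the right cheek was injected intradermally with 1 µg of MMP9, matrix metalloproteinase 9, an enzyme that cleaves gelatin, in 5 µL, and in 5 others with that volume of vehicle. Skin was taken 4 hours later, and each library is 1 mouse, called here vehicle 1 to 5 and MMP9 1 to 5 by the numbers in the labels. Neither the sex of the mice nor the make-up of the vehicle is stated in the sources at hand.

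Keratin-associated proteins form the matrix that holds the keratin filaments of the hair shaft together. They are made late in the growth of a hair, by the keratinising cells of the shaft's cortex and cuticle above the dividing matrix of the follicle. By composition they are grouped as high-sulfur proteins, ultra-high-sulfur proteins and proteins rich in glycine and tyrosine. Cysteines of the sulfur-rich proteins are cross-linked to each other and to the hair keratins, and the glycine-tyrosine proteins are found mainly in the cortex. Subfamilies 1 to 3, 10 to 15 and 24 to 27 are high-sulfur, subfamilies 4, 5, 9 and 17 ultra-high-sulfur, and subfamilies 6 to 8 and 19 to 22 rich in glycine and tyrosine. LEF1 and HOXC13 are transcription factors of the growing follicle, and HOXC13 is known to act on genes of hair keratins and of these matrix proteins.

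The promoters of 5 members are shown because each belongs to a gene that followed a different pattern over the libraries. Krtap8-1 (Entrez gene 16703) was highest where the hair keratins were highest, Krtap6-2 (16701) was highest in MMP9 4, Krtap5-2 (71623) in vehicle 3 and then MMP9 3, Krtap4-9 (665998) was low in MMP9 2, and Krtap3-2 (66708) was kept in the libraries with almost no other member. Each sequence runs from 250 bases before the start of the gene to 50 after it, 5′ to 3′ on the gene's strand, from RefSeq on GRCm38.p6. Capitals mark a TATA box (TATAAA), a LEF1 motif (CTTTGAA or CTTTGAT as well as CTTTGTA or CTTTGTT) or a HOXC13 motif (TTAATNAA, TTAATNAG, TTAATNGA, TTAATNGG, TTTATNAA, TTTATNAG, TTTATNGA or TTTATNGG), searched on both strands, and matches may overlap. The positions are Krtap8-1 at chr16:89487903-89488202 (minus strand), Krtap6-2 at chr16:89420062-89420361 (minus), Krtap5-2 at chr7:142175956-142176255 (minus), Krtap4-9 at chr11:99784950-99785249 (plus) and Krtap3-2 at chr11:99556804-99557103 (minus).
Krtap8-1: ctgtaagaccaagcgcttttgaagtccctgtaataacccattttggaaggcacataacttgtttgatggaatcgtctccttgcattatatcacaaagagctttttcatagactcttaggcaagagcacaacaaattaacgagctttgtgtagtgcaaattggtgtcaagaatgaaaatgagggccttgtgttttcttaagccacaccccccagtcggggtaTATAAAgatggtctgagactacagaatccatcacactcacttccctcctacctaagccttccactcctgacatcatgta
Krtap6-2: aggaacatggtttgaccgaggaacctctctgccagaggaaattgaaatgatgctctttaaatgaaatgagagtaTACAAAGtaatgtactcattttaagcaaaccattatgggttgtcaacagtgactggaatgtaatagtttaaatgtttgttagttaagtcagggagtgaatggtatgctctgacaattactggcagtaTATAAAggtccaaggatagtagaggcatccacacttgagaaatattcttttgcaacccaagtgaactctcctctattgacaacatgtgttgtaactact
Krtap5-2: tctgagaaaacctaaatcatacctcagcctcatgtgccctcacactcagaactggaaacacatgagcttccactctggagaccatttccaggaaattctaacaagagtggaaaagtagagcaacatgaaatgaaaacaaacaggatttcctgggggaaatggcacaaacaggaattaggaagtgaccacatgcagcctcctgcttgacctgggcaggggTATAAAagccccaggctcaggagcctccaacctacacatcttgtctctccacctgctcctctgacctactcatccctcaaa
Krtap4-9: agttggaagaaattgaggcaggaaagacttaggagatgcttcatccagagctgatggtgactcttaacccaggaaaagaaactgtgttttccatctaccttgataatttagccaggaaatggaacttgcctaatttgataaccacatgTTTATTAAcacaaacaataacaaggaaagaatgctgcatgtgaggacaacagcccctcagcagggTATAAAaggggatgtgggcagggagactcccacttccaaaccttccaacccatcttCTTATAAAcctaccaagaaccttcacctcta
Krtap3-2: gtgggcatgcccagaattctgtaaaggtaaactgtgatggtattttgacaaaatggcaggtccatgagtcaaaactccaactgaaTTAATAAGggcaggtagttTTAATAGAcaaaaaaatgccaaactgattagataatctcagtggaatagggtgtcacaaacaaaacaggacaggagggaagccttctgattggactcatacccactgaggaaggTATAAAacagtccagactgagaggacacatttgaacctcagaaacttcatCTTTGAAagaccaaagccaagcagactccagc

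A TATA box was common in the family, though not in every member. Of the 49 members with a promoter entry, 40 (81.6%) held TATAAA, against 13.6% of all 32851 promoters of the same length. TATAAA was in 8 of 8 Krtap4 promoters, in 6 of 7 of Krtap5, Krtap10, Krtap12 and Krtap17, and in 9 of 13 from Krtap19-1 to Krtap6-2. In 29 of the 49 (59.2%) it started 20 to 40 bases before the gene's start, where a working TATA box lies, against 1.99% of all promoters. In the 5 promoters above, the first TATAAA stood 29 bases before the start for Krtap8-1, 49 for Krtap6-2, 31 for Krtap5-2, 37 for Krtap4-9 and 32 for Krtap3-2. The HOXC13 motif was present in 26 of the 49 members (53.1%), against 18.9% of all promoters, and the LEF1 motif in 19 (38.8%), against 16.9%. By subfamily, 6 of 8 Krtap4 promoters held the HOXC13 motif, against 2 of 7 of Krtap5, Krtap10, Krtap12 and Krtap17. Member promoters were also richer in A and T than all promoters (58.7% against 47.3%), the letters that make up most of these motifs. A match is a description of these letters and does not show binding.

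The libraries were of like depth, with 17121541 to 19443099 estimated counts, and no pair was a duplicate. They differed greatly in hair transcripts: vehicle 2 and MMP9 1 held very few, and these 2 libraries are called hair-poor here. Summed over the 15 hair shaft keratin genes in the table, vehicle 2 had 10.8 TPM and MMP9 1 had 11.97 TPM, against 502 to 3935 TPM in the other 8. Krtdap, keratin 10 and the other epidermal genes listed were not low in the hair-poor libraries, with sums of 19300 and 20800 TPM against 13240 to 19880 in the other 8. Shaft genes were thus nearly absent in 1 library of each group. The listed hair matrix regulators summed to 206 and 216 TPM there, against 112 to 352 TPM in the other 8. Much of that sum was Gata3 (83.2 and 84.3 TPM) and Ovol1 (43.6 and 39.8 TPM), so it does not speak for each regulator. Msx2 was at 3.01 and 4.35 TPM, against 3.68 to 30.2 TPM in the other 8. Hoxc13 stood at 7.23 and 7.57 TPM in the hair-poor libraries, as in vehicle 1 (7.51 TPM) and MMP9 5 (7.46 TPM). In bulk skin, fewer shaft-forming cells and less RNA per cell cannot be told apart.

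Krtap transcripts were scarcer on average in the MMP9 group, but the groups overlapped. Summed over the 54 genes they were 6480, 80.3, 18700, 10820 and 8759 TPM in vehicle 1 to 5. In MMP9 1 to 5 the sums were 50.1, 2861, 3429, 8918 and 3783 TPM. The means were 8968 ± 6772 TPM and 3808 ± 3212 TPM (SD, n = 5), or 0.897% ± 0.677 and 0.381% ± 0.321 of all TPM. The highest sum was that of vehicle 3, and the lowest 2 were those of the hair-poor libraries. MMP9 4 lay between vehicle 5 and vehicle 4, and MMP9 2, 3 and 5 lay under every vehicle library but vehicle 2.

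**Figure D1:**
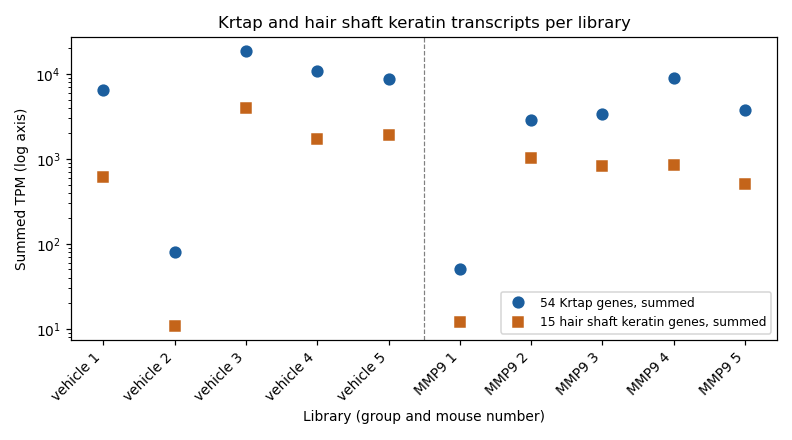
Summed TPM (log axis) of the 54 Krtap genes (circles) and of 15 hair shaft keratin genes (squares) in each library, by group and mouse number. Both sums were lowest in vehicle 2 and MMP9 1, and the Krtap sum lay above the keratin sum in all 10 libraries.

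No member passed the test. With edgeR's quasi-likelihood test, 0 of the 48 tested members were called higher or lower at a Benjamini-Hochberg adjusted p of 0.05, and 0 of all 15250 tested genes were (0% higher and 0% lower). The remaining 6 members (Krtap13, Krtap31-1, Krtap31-2, Krtap9-5, Krtap19-1 and Krtap20-2) were left out by the test's count filter. Krtap19-1 and Krtap20-2 had 347 and 208 counts in total over the 10 libraries, and the others 18 or fewer. At an unadjusted edgeR p under 0.05, 3 members were lower and 0 higher, where 1.12% of all tested genes were lower and 2.07% higher. DESeq2 had 1 member at that level, against 3.7% of all genes in either direction, and limma-voom 0, against 3.03%. None of the 48 had groups that did not overlap, whereas 0.426% of all genes lay wholly above vehicle and 0.138% wholly below it.

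The fitted differences were negative for 38 of the 48 tested members and positive for 10, where 46.3% of all tested genes were negative. Their median log2 fold change (MMP9 over vehicle) was -1.58, against 0.0128 over all tested genes, and 33 of the 48 lay below -1, against 1.03% of all genes. The errors were wide, with standard errors of 0.549 to 1.52 over the 48 members. For 45 of the 48 the 95% interval spanned 0, and no member's interval lay within 1 of 0, as those of 90.2% of all genes did. The bounds of these intervals ran from -6.06 to 6.61, so large differences in either direction could go undetected for most members. Leaving out 1 mouse moved the median between -1.90 (without vehicle 2) and -0.78 (without vehicle 3).

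**Figure D2:**
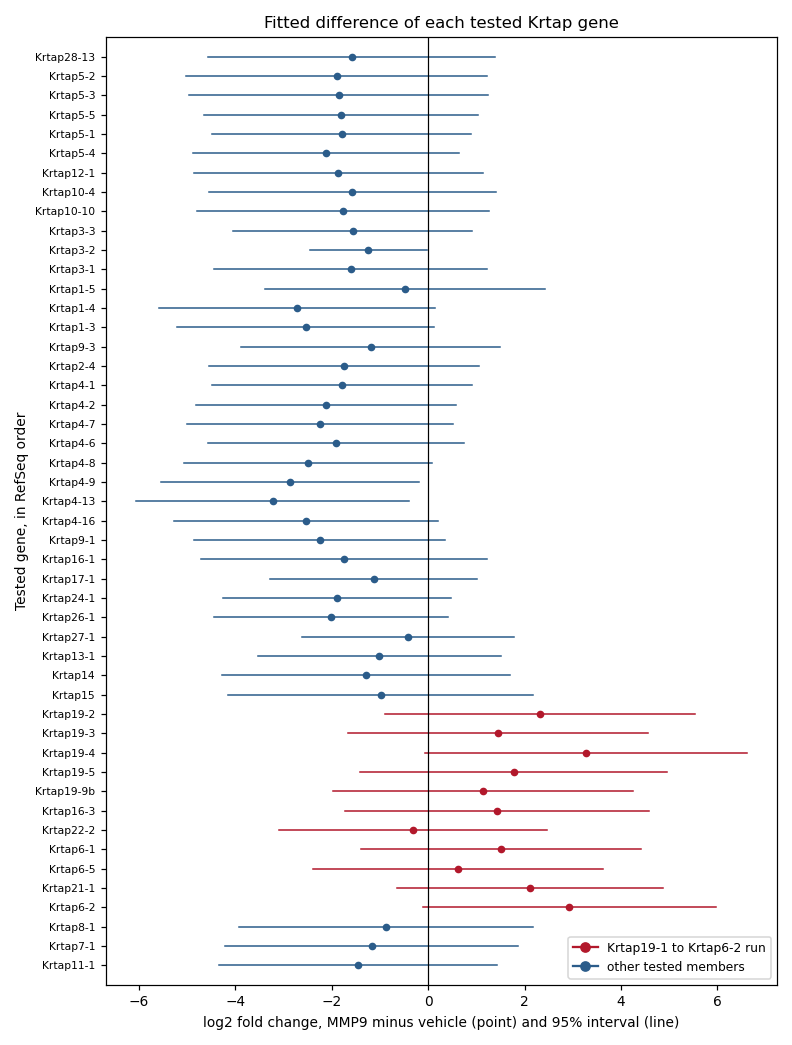
Fitted log2 fold change (MMP9 minus vehicle, point) and its 95% interval (line) of the 48 tested Krtap genes, in RefSeq order. The 10 positive points all belong to the run from Krtap19-1 to Krtap6-2 (red), and 45 of the 48 intervals span 0.

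Without the 2 hair-poor libraries the median stayed at -1.58, and no member passed (lowest edgeR adjusted p 0.951). The number at an unadjusted edgeR p under 0.05 was then 19 of 48, against 2.97% of all genes. In CPM, 13 members were then lower in all 4 MMP9 libraries than in all 4 vehicle libraries, against 0.99% of all genes. They were the 8 Krtap4 genes, Krtap1-3, Krtap1-4, Krtap3-2, Krtap3-3 and Krtap9-1. In TPM the count was 15, with Krtap2-4 and Krtap3-1 added, against 0.721% of all genes. No member was higher in all 4 MMP9 libraries, against 1.28% of all genes. These 2 libraries were left out because of their low hair genes, so the counts describe the other 8 mice and are not a test of MMP9.

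Relative to the hair shaft keratins, the filaments that these proteins bind, the family's level overlapped between groups. The summed Krtap TPM was 10.6, 7.44, 4.75, 6.28 and 4.61 times the summed shaft keratin TPM in vehicle 1 to 5. In MMP9 1 to 5 it was 4.18, 2.76, 4.20, 10.5 and 7.54 times. The means of 6.74 ± 2.45 and 5.83 ± 3.13 (SD, n = 5) differed by less than 1 SD, and both groups held libraries above 10 and below 5. In the hair-poor libraries the ratio came mostly from Krtap3-2: without that gene it was 0.872 in vehicle 2 and 0.811 in MMP9 1, and the group means were 5.24 ± 3.35 and 5.01 ± 3.76. The keratin sum there came largely from Krt32, which was kept in this ratio. Krt32 gave 7.08 of 10.8 TPM in vehicle 2 and 6.61 of 11.97 TPM in MMP9 1. Of the 15 keratins, 14 were negative, with a median log2 fold change of -1.24. Krt81 and Krt86, type II keratins of the cortex, had log2 fold changes of -1.32 ± 1.30 and -1.55 ± 1.26 (SE), with an edgeR adjusted p of 0.981 for each.

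Other parts of the follicle were also lower on average in the MMP9 group, and none of their genes was called (0 in each list). All 10 tested genes of the inner root sheath, the sleeve that moulds the growing hair, were negative, with a median of -1.23. So were all 10 of other shaft proteins, with a median of -1.27. Of 11 hair matrix regulators 9 were negative, with a median of -0.58, including Hoxc13 (-0.61 ± 0.38, SE) and Foxn1 (-0.83 ± 0.42), both with an edgeR adjusted p of 0.981. The outer root sheath list had a median of -0.10, melanocytes -0.48, cell division -0.30 and sebaceous gland -0.18. Epidermis and muscle stood at 0.04 and -0.01, and fibroblast genes at 0.20. Their part in the Krtap values was not tested.

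**Figure D3:**
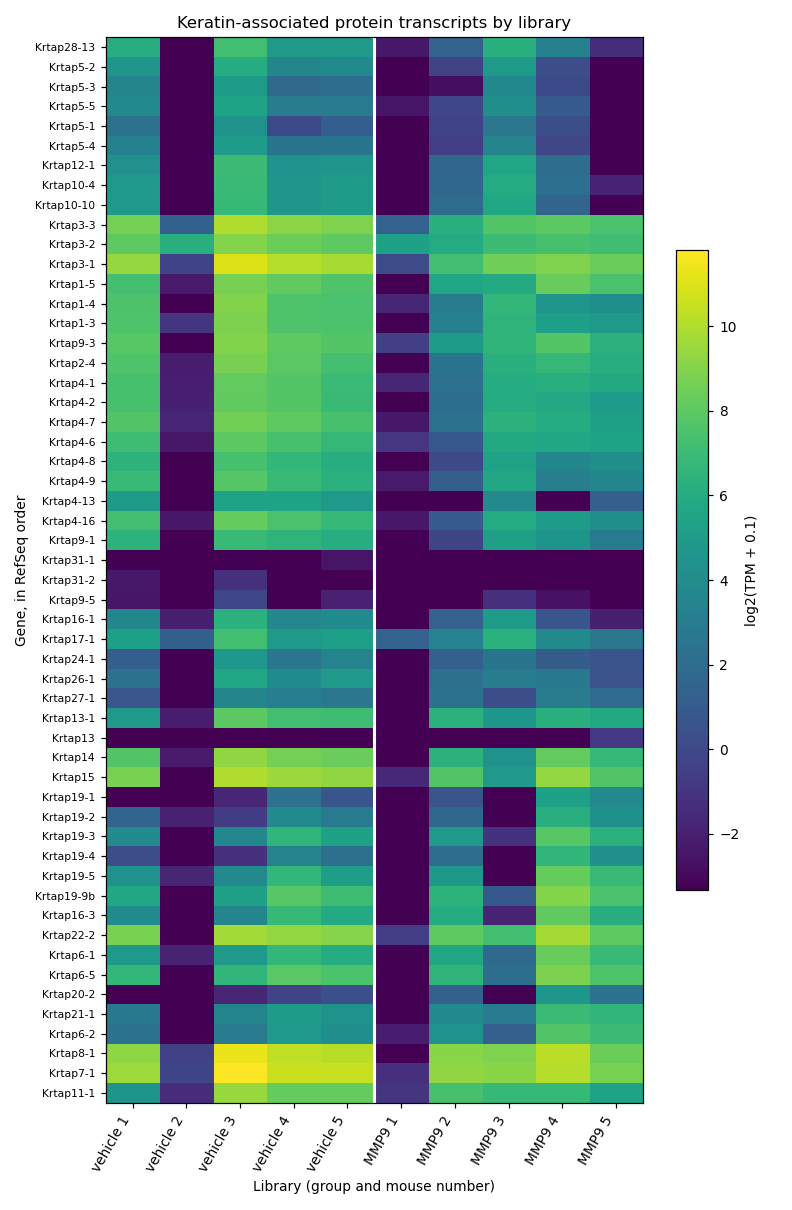
Level of each of the 54 Krtap genes, as log2(TPM + 0.1), in each library (columns, vehicle left of the white line), in RefSeq order (rows). Vehicle 2 and MMP9 1 are dark throughout but for Krtap3-2, the Krtap19-1 to Krtap6-2 run is brightest in MMP9 4, and Krtap5 and Krtap10 are brightest in vehicle 3 and MMP9 3.

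Among the high-sulfur genes, subfamilies 1 to 3 encode small proteins of the hair cortex. All 7 tested members were negative, with subfamily medians of -2.55 for Krtap1, -1.75 for Krtap2 and -1.56 for Krtap3. Krtap3-1, the highest of its subfamily, stood at 669, 0.74, 2013, 1097 and 887 TPM in vehicle 1 to 5 and at 1.00, 147, 372, 475 and 329 TPM in MMP9 1 to 5. Outside the hair-poor libraries every MMP9 value was under every vehicle value, and with all 10 mice the groups overlapped (log2 fold change -1.61 ± 1.29 SE, edgeR adjusted p 0.981).

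Krtap1-3 and Krtap1-4 had the largest fitted differences of these subfamilies. Krtap1-4 was at 191, 0, 479, 198 and 178 TPM in vehicle 1 to 5 and at 0.19, 7.91, 105, 23.1 and 18.3 TPM in MMP9 1 to 5 (-2.71 ± 1.30 SE, edgeR adjusted p 0.981). Krtap1-3 was at 201, 0.40, 450, 202 and 181 TPM and at 0, 9.42, 89.8, 37.2 and 28.1 TPM in the same order (-2.55 ± 1.21). The neighbouring Krtap1-5 shared the low values of MMP9 2 and 3 but not those of MMP9 4 and 5, at 157, 0.11, 412, 272 and 200 TPM in vehicle and 0, 46.5, 60.2, 314 and 177 TPM in MMP9. In MMP9 4 Krtap1-5 was higher than in vehicle 1, 4 and 5, and its fitted difference was -0.48 ± 1.32 (edgeR adjusted p 0.987), or -1.59 without MMP9 4 and -0.07 without vehicle 3. Krtap2-4 lay between them, at 202, 0.13, 416, 240 and 160 TPM in vehicle and 0, 5.55, 78.2, 105 and 67.4 TPM in MMP9 (-1.75 ± 1.27).

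Krtap3-2 was the exception to the loss of Krtap transcripts in the hair-poor libraries. It stood at 269, 70.9, 513, 337 and 262 TPM in vehicle 1 to 5 and at 40.4, 63.6, 129, 168 and 144 TPM in MMP9 1 to 5. The groups overlapped only through vehicle 2, and the values of MMP9 1 and 2 were the lowest. Its fitted difference was -1.24 ± 0.55 (SE), with the smallest standard error of the family, an unadjusted edgeR p of 0.0451 and an adjusted p of 0.981. It gave 91.3% of the Krtap counts of vehicle 2 and 85.3% of those of MMP9 1. Of the 48 tested members, 27 had 0 counts in vehicle 2 and 30 in MMP9 1, and 41 in each had 3 counts or fewer. A count of 0 allows a level of up to 0.164 CPM in vehicle 2 and 0.155 CPM in MMP9 1, by counting error only. Krtap3-2 shares 28.9% of its 50-base windows with Krtap3-3, which stood at only 2.49 and 2.55 TPM in those libraries. After Krtap3-2 the highest members there were Krtap3-3 and Krtap17-1, the latter at 2.16 and 2.59 TPM.

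The high-sulfur genes Krtap11-1, Krtap13-1, Krtap24-1, Krtap26-1 and Krtap27-1 were low in another library, vehicle 1. Krtap11-1 was at 22.2, 0.28, 703, 300 and 294 TPM in vehicle 1 to 5 and at 0.39, 171, 112, 113 and 44.1 TPM in MMP9 1 to 5. Its vehicle 1 value was 7.46% of the mean of vehicle 4 and 5, and the groups overlapped (-1.45 ± 1.31 SE, edgeR adjusted p 0.981). Krtap13-1 stood at 27.5, 0.13, 249, 146 and 138 TPM and at 0, 84.7, 24.8, 77.3 and 58.8 TPM, with vehicle 1 at 19.3% of that mean (-1.01 ± 1.15). Krtap26-1 was low in the same library, at 4.79, 0, 47.6, 16.2 and 27.5 TPM in vehicle and 0, 4.67, 8.42, 6.83 and 1.36 TPM in MMP9 (-2.01 ± 1.10). Krtap24-1 and Krtap27-1 were at 27.5% and 21.5% of the mean of vehicle 4 and 5 in vehicle 1, with fitted differences of -1.89 ± 1.08 and -0.41 ± 1.00. Low values in vehicle 1 were not particular to these genes. Krtap7-1 and Krtap8-1 were there at 50.1% and 49.2% of that mean. The 11 tested genes from Krtap19-1 to Krtap6-2, nearly all rich in glycine and tyrosine, were at 13.9% to 74.6%.

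Vehicle 1 was not low in all sulfur-rich genes. Its Krtap4 levels were 84.8% to 118% of the mean of vehicle 4 and 5, Krtap1-3 stood at 105%, and the 5 Krtap5 genes at 169% to 332%. Krtap1-5, Krtap3-1, Krtap3-3, Krtap14 and Krtap15 stood lower, at 66.3%, 67.4%, 75.3%, 57.7% and 64.2%. Some keratins of that library were low as well: Krt35 was at 0.68 TPM against 58.8 and 86.6 TPM in vehicle 4 and 5, while Krt34 was at 161 TPM against 196 and 202 TPM. Krt31, a type I keratin of the cortex, was at 10.5% of the mean of vehicle 4 and 5. Vehicle 1 thus held a different mix of shaft genes from vehicle 4 and 5. Krt34 and Krt35 were chosen after their values were seen.

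Krtap14 and Krtap15 were low in MMP9 3 among the hair-bearing libraries. Krtap15 stood at 428, 0, 1027, 721 and 612 TPM in vehicle 1 to 5 and at 0.24, 209, 27.5, 649 and 208 TPM in MMP9 1 to 5 (-0.99 ± 1.44 SE, edgeR adjusted p 0.981). Krtap14 stood at 206, 0.11, 637, 395 and 318 TPM and at 0, 83.8, 20.4, 286 and 106 TPM (-1.30 ± 1.36). In both genes MMP9 4 lay inside the range of the hair-bearing vehicle libraries, and MMP9 2, 3 and 5 lay under that range. Without MMP9 4 the fitted differences were -2.61 for Krtap14 and -2.38 for Krtap15. Both genes overlap other genes in the annotation, each other among them, but neither shares a 50-base window with another gene. The counting is not stated to use strand, so whether reads were assigned between overlapping genes is not known.

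The ultra-high-sulfur subfamily Krtap4 had 8 tested members, and all 8 were negative, between -3.22 and -1.79, with a median of -2.37. Summed, they were at 1072, 0.69, 1950, 1301 and 812 TPM in vehicle 1 to 5 and at 0.93, 21.0, 439, 298 and 223 TPM in MMP9 1 to 5. Every hair-bearing MMP9 library was under every hair-bearing vehicle library. Leaving out 1 mouse moved the subfamily median between -2.86 (without MMP9 3) and -1.99 (without vehicle 3). The genes lie side by side and resemble each other in sequence, so they are not separate replicates, and reads may have been assigned among them.

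Krtap4-13 and Krtap4-9 had the 2 smallest p of the family. Krtap4-9 stood at 120, 0, 226, 122 and 81.0 TPM in vehicle 1 to 5 and at 0.11, 2.24, 50.9, 8.69 and 12.2 TPM in MMP9 1 to 5. The groups overlapped through vehicle 2 alone (-2.86 ± 1.22 SE, unadjusted edgeR p 0.0385, adjusted p 0.981). Krtap4-13 was at 30.5, 0, 42.9, 43.3 and 28.6 TPM and at 0, 0, 13.7, 0 and 2.36 TPM (-3.22 ± 1.29, unadjusted edgeR p 0.0294, adjusted p 0.981). It shares 81.3% of its 50-base windows with the predicted gene Gm11554, so its counts are uncertain. Without MMP9 3 the fitted differences were -5.58 for Krtap4-13 and -4.03 for Krtap4-9. Krtap4-7, the highest of the subfamily, was at 207, 0.20, 387, 262 and 172 TPM and at 0.10, 4.89, 82.8, 64.3 and 38.6 TPM (-2.25 ± 1.26). Krtap4-8 and Krtap4-16 had -2.50 ± 1.17 and -2.54 ± 1.24, and neither passed.

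MMP9 2 held very little Krtap4 relative to Krtap7-1 and Krtap8-1. The subfamily made up 0.734% of its Krtap TPM, against 3.34% to 12.8% in MMP9 3 to 5 and 9.27% to 16.6% in the hair-bearing vehicle libraries. Relative to Krtap7-1 and Krtap8-1 together, Krtap4 was at 0.0176 in MMP9 2 and at 0.129 to 0.789 in the other 7 hair-bearing libraries. The 8 members were in MMP9 2 at 0% to 7.496% of their level in MMP9 3, whereas Krtap7-1 and Krtap8-1 were at 115% and 120%. Krtap11-1 was at 153% and Krtap15 at 759% of the MMP9 3 level. Low like Krtap4 were Krtap9-1 (2.07%), Krtap2-4 (7.10%), Krtap1-4 (7.57%), Krtap1-3 (10.5%) and the 9 genes of Krtap5, Krtap10, Krtap12 and Krtap17 (0.382% to 12.9%). The mix of members thus differed between MMP9 2 and MMP9 3, whose summed Krtap TPM were 2861 and 3429.

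The 2 tested Krtap9 genes, also ultra-high-sulfur, differed in MMP9 4. Krtap9-1 was at 88.8, 0, 122, 91.6 and 69.2 TPM in vehicle 1 to 5 and at 0, 0.81, 39.2, 22.2 and 7.71 TPM in MMP9 1 to 5 (-2.25 ± 1.18 SE, edgeR adjusted p 0.981). All its hair-bearing MMP9 values lay under the vehicle ones, as in Krtap4. Krtap9-3 stood at 237, 0, 490, 262 and 214 TPM and at 0.63, 32.6, 94.3, 215 and 84.7 TPM (-1.19 ± 1.22). In MMP9 4 it reached the level of vehicle 5, and without MMP9 4 its fitted difference was -2.24.

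Krtap5 and Krtap17 (ultra-high-sulfur) and Krtap10 and Krtap12 (high-sulfur) are subfamilies known from the cuticle, the layer of overlapping cells around the shaft. Their 9 tested members were all negative, and all 9 were highest in vehicle 3 and second highest in MMP9 3. Summed, they were at 180, 2.16, 706, 129 and 157 TPM in vehicle 1 to 5 and at 2.67, 23.5, 319, 32.0 and 6.47 TPM in MMP9 1 to 5. Each member was 5.47 to 27.5 times higher in MMP9 3 than in MMP9 4, and 10.3 to 59.4 times higher in vehicle 3 than in MMP9 4. In MMP9 3 they gave 9.31% of all Krtap TPM, and 0.171% to 3.77% in the other 7 hair-bearing libraries.

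Krtap5-2 stood at 23.97, 0, 64.7, 12.1 and 14.5 TPM in vehicle 1 to 5 and at 0, 0.76, 30.0, 1.09 and 0 TPM in MMP9 1 to 5. MMP9 3 exceeded every vehicle library but vehicle 3 (-1.90 ± 1.42 SE, edgeR adjusted p 0.981). Krtap10-4 was at 28.9, 0, 121, 23.5 and 31.0 TPM and at 0, 3.24, 62.0, 4.50 and 0.18 TPM (-1.57 ± 1.35). Krtap12-1 was at 20.1, 0, 132, 20.7 and 24.4 TPM and at 0, 3.11, 47.2, 4.09 and 0 TPM (-1.87 ± 1.36). The same 2 libraries led in each of these subfamilies. Krtap17-1 was still detected in the hair-poor libraries and stood at 36.8, 2.16, 150, 28.02 and 36.5 TPM and at 2.59, 10.2, 79.6, 14.5 and 6.29 TPM (-1.13 ± 0.98). It shares no 50-base window with another gene.

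Single libraries set the size of these differences. Without MMP9 3 the median was -4.60 for Krtap5 and -4.21 for Krtap10, and without vehicle 3 it was -0.87 and -0.74, against -1.86 and -1.67 with all mice. Over the whole family, leaving out MMP9 3 gave 19 of 48 members an unadjusted edgeR p under 0.05 (4.42% of all genes) and a lowest adjusted p of 0.910. Krtap10-4, Krtap10-10 and Krtap12-1 overlap Tspear in the annotation, and whether reads were assigned between them is not known. They also share 41.95%, 44.39% and 14.66% of their 50-base windows with other genes. Krtap5-1 shares 60.6% of its 50-base windows with other genes.

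Of the hair genes outside the family, S100a3 and Krt82 were among those with the same 2 leading libraries. The order was not limited to the cuticle: the inner root sheath genes Krt71 (1348 TPM in vehicle 3, 582 TPM in MMP9 3) and Tchh (418 and 170 TPM) had it too. Krt25 of the same sheath and the cortex keratins Krt31 and Krt81 did not. S100a3, a calcium-binding protein of the cuticle, was at 62.5, 3.18, 1051, 246 and 290 TPM in vehicle 1 to 5 and at 5.46, 120, 356, 106 and 10.3 TPM in MMP9 1 to 5. Krt82, a cuticle keratin, was at 1.08, 0.66, 35.0, 6.95 and 9.27 TPM and at 0.54, 4.03, 14.2, 1.52 and 0.56 TPM. Both were highest in vehicle 3 and second highest in MMP9 3, but neither was high in vehicle 1, where the Krtap5 genes were above vehicle 4 and 5. S100a3, Krt82 and the genes set beside them were chosen after their values were seen. Krtap16-1 and Krtap28-13 were likewise highest in vehicle 3 and second highest in MMP9 3, with Krtap28-13 at 68.4, 0, 147, 27.2 and 29.2 TPM in vehicle and 0.10, 2.57, 76.6, 9.97 and 0.29 TPM in MMP9 (-1.59 ± 1.36 SE, edgeR adjusted p 0.981).

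Of the glycine-tyrosine genes, Krtap7-1 and Krtap8-1 were the 2 most abundant members of the family by mean TPM over the 10 libraries. Krtap7-1 stood at 757, 0.79, 3556, 1559 and 1465 TPM in vehicle 1 to 5 and at 0.32, 636, 551, 1126 and 436 TPM in MMP9 1 to 5. Krtap8-1 stood at 602, 0.69, 2572, 1292 and 1154 TPM and at 0, 556, 464, 1182 and 333 TPM. Both were highest in vehicle 3. MMP9 4 lay within the range of the hair-bearing vehicle libraries, and MMP9 2, 3 and 5 lay under that range. The fitted differences were -1.17 ± 1.38 and -0.87 ± 1.39 (SE), with an edgeR adjusted p of 0.981 for each. Without MMP9 4 they were -1.92 and -1.80, and without vehicle 3 -0.54 and -0.31. Together the 2 genes gave 20.3% to 41.7% of the Krtap TPM in the 8 hair-bearing libraries.

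**Figure D4:**
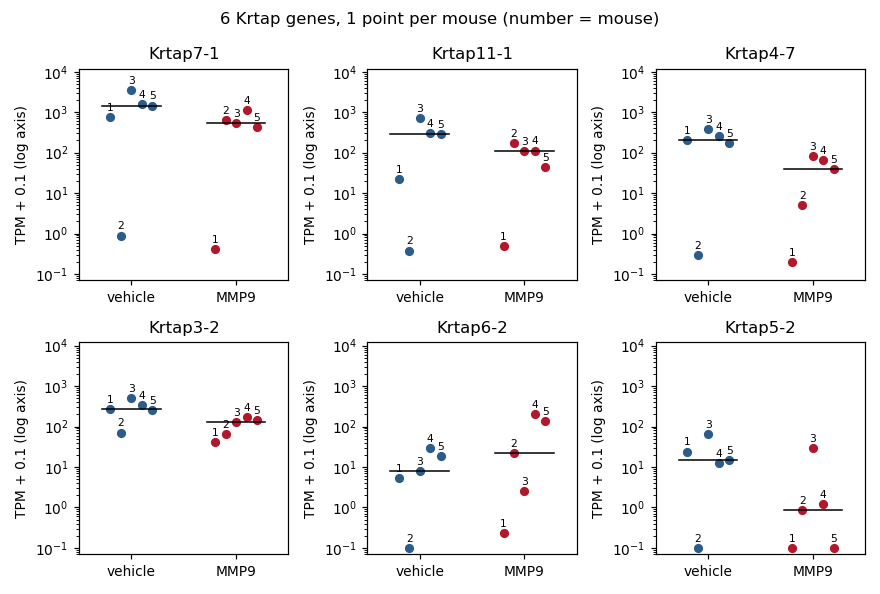
TPM + 0.1 (log axis) of 6 Krtap genes, with 1 point per mouse, the mouse number above each point and a bar at the group's median. Krtap6-2 is highest in MMP9 4 and 5, Krtap5-2 in vehicle 3 and MMP9 3, Krtap11-1 is low in vehicle 1, and Krtap3-2 keeps 70.9 and 40.4 TPM in the hair-poor vehicle 2 and MMP9 1.

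The other glycine-tyrosine genes, and with them Krtap16-3, lie in a run of neighbours from Krtap19-1 to Krtap6-2, between Krtap15 and Krtap8-1, and had the family's only positive differences. The run holds 13 listed genes of subfamilies 6, 16, 19, 20, 21 and 22, of which 11 were tested. All 10 positive members of the family were among these 11 (53.7% of all tested genes were positive), and the 11th, Krtap22-2, was at -0.32 ± 1.27 (SE, edgeR adjusted p 0.990). The median of the 11 was 1.52, and all 11 were highest in MMP9 4. The run was set apart after its values were seen.

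Summed, the run stood at 690, 0.54, 1064, 1628 and 1101 TPM in vehicle 1 to 5 and at 0.69, 669, 167, 3509 and 1327 TPM in MMP9 1 to 5. The groups overlapped, with MMP9 4 above and MMP9 2 and 3 below most vehicle libraries. The run made up 39.4% of the Krtap TPM of MMP9 4, 35.1% of MMP9 5 and 23.4% of MMP9 2, but 4.87% of MMP9 3. In the hair-bearing vehicle libraries it made up 5.69% to 15.1%.

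**Figure D5:**
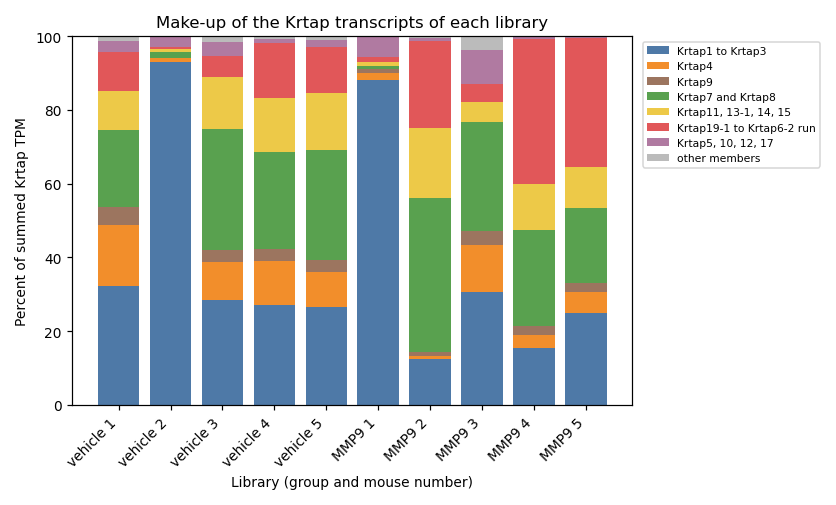
Percent of the summed Krtap TPM of each library given by each group of members (stacked bars, adding to 100%). The Krtap19-1 to Krtap6-2 run takes 39.4% in MMP9 4 and 35.1% in MMP9 5, Krtap4 takes 0.734% in MMP9 2, and Krtap1 to Krtap3 take 93.1% and 88.1% in the hair-poor vehicle 2 and MMP9 1.

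Within the run MMP9 4 was above MMP9 3 in all 11 tested genes, the reverse of their order in the cuticle subfamilies. Krtap6-2 stood at 5.26, 0, 7.78, 28.6 and 18.5 TPM in vehicle 1 to 5 and at 0.13, 21.8, 2.42, 203 and 134 TPM in MMP9 1 to 5 (2.93 ± 1.39 SE, unadjusted edgeR p 0.0577, adjusted p 0.981). MMP9 4 and 5 exceeded all vehicle libraries, and MMP9 1 and 3 lay among the lowest. Krtap19-4 was at 1.08, 0, 0.35, 10.9 and 4.67 TPM and at 0, 4.14, 0, 97.5 and 19.0 TPM (3.27 ± 1.52, unadjusted edgeR p 0.0546, adjusted p 0.981). Krtap21-1 was at 6.69, 0, 11.04, 31.5 and 21.5 TPM and at 0, 14.7, 7.44, 125 and 99.0 TPM (2.11 ± 1.26). In these 3 genes MMP9 4 and 5 were the 2 highest of the 10 libraries.

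Krtap19-9b, the most abundant of its subfamily, stood at 51.7, 0, 39.95, 235 and 136 TPM in vehicle 1 to 5 and at 0, 86.5, 1.70, 506 and 178 TPM in MMP9 1 to 5 (1.14 ± 1.42 SE, edgeR adjusted p 0.981). Krtap6-5 was at 104, 0, 98.2, 240 and 180 TPM and at 0, 94.9, 4.28, 446 and 194 TPM (0.62 ± 1.37). For both, vehicle 4 was higher than MMP9 5. Krtap16-3, at 16.2, 0, 11.9, 113 and 59.4 TPM and at 0, 65.7, 0.17, 276 and 68.8 TPM (1.43 ± 1.44), followed its neighbours. Krtap16-1, which lies beside Krtap17-1 on another chromosome, had -1.74 ± 1.35, so the subfamily number did not group genes of like pattern there. Krtap19-1 and Krtap20-2, below the test's filter, were also highest in MMP9 4, at 40.5 and 24.1 TPM.

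Krtap22-2 lies in the run but resembled Krtap7-1 and Krtap8-1 more. It stood at 438, 0, 838, 644 and 530 TPM in vehicle 1 to 5 and at 0.56, 265, 147, 872 and 269 TPM in MMP9 1 to 5. Vehicle 3 was nearly as high as MMP9 4, at 0.961 of its level, and the groups overlapped. In the 10 other tested genes of the run, MMP9 4 was 4.54 to 278 times as high as vehicle 3.

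The positive sign of the run depended on the model and scale used and on MMP9 4. Without that library 5 of the 11 were positive and the median was -0.06. With all mice kept, 3 were positive with limma-voom, 5 with limma on log2(TPM + 1) and 3 on log2(TPM + 0.1). Krtap6-2, Krtap19-4 and Krtap21-1 stayed positive without MMP9 4, at 1.69, 0.71 and 1.07, and none passed. Relative to Krtap7-1 and Krtap8-1 together, the run stood at 0.508, 0.365, 0.174, 0.571 and 0.420 in vehicle 1 to 5 and at 2.16, 0.562, 0.164, 1.52 and 1.73 in MMP9 1 to 5. The values of vehicle 2 and MMP9 1 rest on nearly no reads, and the MMP9 4 and 5 values lie above all vehicle ones.

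MMP9 4 also stood apart in transcript length over all genes. Its median log2 TPM difference from the median of the other 9 libraries was 0.488 for 180 tested genes of effective length under 500 bases, 0.128 for 957 genes of 500 to 1000 bases, -0.284 for 3261 of 1000 to 2000 and -0.77 for 9663 of 2000 and over. In the other 9 libraries these medians lay between -0.156 and 0.151. Tested genes of the run have effective lengths of 255 to 740 bases, Krtap7-1 and Krtap8-1 of 530 and 572 bases, Krtap4 of 581 to 1009, the cuticle subfamilies of 622 to 1603 and the shaft keratins of 1532 to 3145. The part of this length difference in the values of MMP9 4 was not tested.

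Over the whole family, 36 of the 48 tested members were highest in vehicle 3, 11 in MMP9 4 and 1 (Krtap4-13) in vehicle 4. Of the 15 hair shaft keratins, 14 were highest in vehicle 3, and the other was Krt84. In vehicle 3 Hoxc13 and Foxn1 were also highest, at 30.9 and 29.9 TPM against 5.65 to 14.2 and 4.25 to 13.4 TPM in the other 9. No member was highest in vehicle 1, 2 or 5 or in MMP9 1, 2, 3 or 5.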

How the data were processed

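Cheek skin of 10 mice (5 per group) was profiled by single-end 50-base mRNA sequencing, per the labels. The authors' table, per the file headers, gives an estimated count (60.8% of values not whole), FPKM and TPM per gene and library. FPKM deposited by the authors were scaled by length and library size, and deposited TPM also to a common sum. The submitters' processing notes name HISAT and GRCm39. The counting program, annotation, strand and handling of shared reads are stated in none of the sources at hand. From the deposited table, 6 columns with means per group were left out.

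After rounding, the estimated counts went into edgeR 4.0.16 under R 4.3.3 (filterByExpr, TMM, quasi-likelihood F test, Benjamini-Hochberg adjustment over 15250 genes, threshold 0.05). Standard errors and 95% intervals are on the log2 scale. p-values measure the spread between mice. On simulated counts of 15152 genes for this comparison, the test recovered 20% of changes of 1.5 times, 66% of 2 times, 94% of 4 times and 98% of 8 times. The changed genes were drawn from all tested genes of at least 1 CPM, so these shares do not hold for the Krtap genes, whose standard errors were 0.549 to 1.52. Levels and sums are TPM, which allow for length. Effective lengths were derived from the deposited counts and FPKM. Shared 50-base windows and overlapping genes were taken from GENCODE M21 transcripts, and gene order and promoters from RefSeq on GRCm38.p6, where all 54 members matched and 49 had a promoter entry. Alternatives used DESeq2 1.42.0, limma 3.58.1 and other filters, units and libraries.

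The most abundant member of each subfamily and the 10 members with the smallest p are named, with reference hair genes. Members, lists and groups were chosen with earlier results of these data known.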

Additional observations from a re-analysis of the deposited data

Results flagged for a closer look

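Of 84 groups of 5 values examined (the named members and the sums, in vehicle and in MMP9), 15 had 1 library whose gap to the nearest other exceeded 0.71 of the group's range, Dixon's 95% limit for 5 samples. The limit is passed in about 1 in 20 groups only where values are normally distributed. The values here were not logged, all 15 were high values, and the members are not independent of each other. The count is therefore not read as an excess over chance.

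Most of these values were high values of MMP9 3, in cuticle and Krtap4 genes. Within the MMP9 group that library was apart for Krtap5-2 (30.0 TPM), Krtap10-4 (62.0 TPM), Krtap12-1 (47.2 TPM), Krtap17-1 (79.6 TPM) and Krtap28-13 (76.6 TPM). It was also apart for Krtap4-13 (13.7 TPM), Krtap4-9 (50.9 TPM) and Krtap1-4 (105 TPM), and for the summed cuticle subfamilies (319 TPM).

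Within vehicle, vehicle 3 was apart for Krtap10-4 (121 TPM), Krtap12-1 (132 TPM), Krtap17-1 (150 TPM) and the summed cuticle subfamilies (706 TPM). MMP9 4 was apart within its group for Krtap16-3 (276 TPM) and Krtap19-4 (97.5 TPM).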

How the results depend on the processing

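No Krtap gene was called under any of the 19 alternatives (other factors, filters, models and units, the replicate block, and leaving out libraries), and over all genes DESeq2 called 1. Of the 34 named members, 29 kept their sign throughout, and their adjusted p lay between 0.887 and 1. The family median ranged from -1.90 to -0.78 and the number of negative members from 37 to 45.

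The number of positive genes in the Krtap19-1 to Krtap6-2 run was 3 with limma-voom, 5 on log2(TPM + 1), 3 on log2(TPM + 0.1), and 5 to 11 with each mouse left out in turn. Krtap6-5 turned to -0.86 with limma-voom, -0.46 with the replicate block, -0.67 on log2(TPM + 1), -0.72 on log2(TPM + 0.1) and -0.80 without MMP9 4. Krtap16-3 turned to -0.59 with limma-voom, -0.0034 on log2(TPM + 1), -0.39 on log2(TPM + 0.1) and -0.31 without MMP9 4. Krtap19-9b turned to -0.61 with limma-voom, -0.029 with the block, -0.34 on log2(TPM + 1), -0.45 on log2(TPM + 0.1) and -0.52 without MMP9 4. Krtap22-2 was 0.0020 without MMP9 1, and Krtap27-1 was 0.048 without vehicle 3. With each mouse left out in turn, Krtap6-5 ranged up to 1.00, Krtap16-3 to 2.31 and Krtap19-9b to 1.84, and Krtap22-2 and Krtap27-1 down to -1.58 and -1.27. The cause of these changes was not tested.

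The mean ratio of Krtap to shaft keratin sums was 12.2 in vehicle and 10.6 in MMP9 with type I keratins alone, 18.0 and 13.8 with type II alone, and 2.95 and 2.29 in estimated counts. Without Krtap3-2, an alternative chosen after seeing the data, it was 5.24 and 5.01. With each mouse left out it was 5.77 to 7.27 in vehicle and 4.67 to 6.59 in MMP9.

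The mouse numbers are shared by the groups, and the values do not settle whether they pair the libraries. Same-numbered mice correlated at -0.242, -0.0452, 0.455, 0.14 and 0.201, and 2 of 5 matched their own number best. With the replicate block, 0 Krtap genes were called and the median was -1.68. At an unadjusted edgeR p under 0.05 there were 10 of 48 members, against 3.63% of all genes. Without the block there were 3, against 3.19% of all genes. With 5 mice a group, standard errors of 0.549 to 1.52 limit what these comparisons can show.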
